A study of Homo sapiens with 10 samples.

Results

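TXNIP, its alpha-arrestin relatives ARRDC1, ARRDC2, ARRDC3 and ARRDC4, and the glucose sensors MLXIP and MLXIPL were followed across 10 RNA libraries of multiple myeloma cells. These are 7 of the 58229 genes in the deposited table, found there by Ensembl gene ID. The group was chosen by these data, because TXNIP and ARRDC3 stood higher in FPKM in AIMP1-overexpressing cells than in wild-type cells. That comparison is therefore given as a description and was not tested for these genes. Levels are in FPKM, fragments normalised to transcript length and library size. Of the 7 genes, 5 had a mean of at least 1 FPKM over the libraries and entered the tests with 12872 genes in all. Each of these 5 stood at 7.10 FPKM or more in every library. ARRDC4 and MLXIPL fell short of the minimum and are described by their values alone.

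The study asked how changing AIMP1, a scaffold subunit of the complex of aminoacyl-tRNA synthetases whose protein is also released from cells, alters the myeloma transcriptome. The cells came from 2 lines, H929, a human myeloma line, and one labelled OCI without saying which OCI line. In each line there was 1 library of cells overexpressing AIMP1, 1 of cells treated with AIMP1 protein, 2 of cells with AIMP1 knockdown and 1 of wild-type cells. The table's wild-type columns carry a suffix, ZY, that the sample titles lack and nothing explains, while the columns of all other libraries match their titles exactly. The protein columns are also named WT, followed by AIMP1, so every comparison with wild type rests on reading the suffixed columns as the wild-type cells. The constructs, the protein's dose, the treatment times and whether libraries came from separate cultures are not given in the sources used here. The p-values therefore measure the spread between these libraries, which may be technical. In the fit with terms for line and manipulation, this spread includes any disagreement between the 2 lines about a manipulation.

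Alpha-arrestins are adaptor proteins that bind membrane cargo and recruit NEDD4-family ubiquitin ligases, which marks the cargo for endocytosis. TXNIP binds and inhibits reduced thioredoxin and promotes the removal of the glucose transporter GLUT1, the product of SLC2A1, from the cell surface. MLXIP (MondoA) and MLXIPL (ChREBP) sense phosphorylated glucose, pair with MLX and bind carbohydrate response elements, which consist of a pair of E-box-like sequences separated by a short spacer. TXNIP and ARRDC4 are well-known MondoA targets in other cells.

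The upstream windows of 3 alpha-arrestins are shown because they differ in how many E-box-like sequences they hold. Each window covers the 250 bases before a RefSeq start on GRCh38.p14, read 5′ to 3′ on the gene's strand. Capitals mark the E-box-like sequence CACGNG and the forkhead motif TGTTTAC on either strand. TXNIP is at chr1:145996580-145996829 on the minus strand, the inner of 2 ARRDC3 starts at chr5:91380098-91380347 on the minus strand, and ARRDC4 at chr15:97960453-97960702 on the plus strand.
TXNIP: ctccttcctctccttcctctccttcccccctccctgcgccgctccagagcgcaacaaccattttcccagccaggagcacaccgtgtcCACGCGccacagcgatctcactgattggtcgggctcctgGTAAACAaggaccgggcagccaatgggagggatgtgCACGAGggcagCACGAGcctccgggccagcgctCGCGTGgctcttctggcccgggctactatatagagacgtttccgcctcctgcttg
ARRDC3: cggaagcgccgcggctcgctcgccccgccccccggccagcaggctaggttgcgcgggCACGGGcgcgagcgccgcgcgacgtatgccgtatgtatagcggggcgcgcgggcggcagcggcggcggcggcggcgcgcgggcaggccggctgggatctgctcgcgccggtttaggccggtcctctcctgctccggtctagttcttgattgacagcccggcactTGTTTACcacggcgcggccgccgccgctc
ARRDC4: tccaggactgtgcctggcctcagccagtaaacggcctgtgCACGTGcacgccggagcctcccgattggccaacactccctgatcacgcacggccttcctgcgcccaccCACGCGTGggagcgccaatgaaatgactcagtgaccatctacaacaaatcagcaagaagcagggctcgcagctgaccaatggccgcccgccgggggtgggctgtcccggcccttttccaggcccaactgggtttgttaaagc

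The TXNIP window shown, 1 of 2 listed for this gene, held 4 matches to CACGNG, beginning at bases -163, -88, -77 and -55 from the start, and the window of the other start held none. The middle pair forms a direct repeat of this element from -88 to -72, with 5 bases between the copies, which 0.0456% of 35116 RefSeq windows hold, whereas a single CACGNG is present in 26.7%. The forkhead motif, the binding sequence of FOXO-type factors, began at -124 in TXNIP and at -29 in the ARRDC3 window, and 2.98% of all windows hold it. ARRDC3 had 1 CACGNG match in the window shown and none at its outer start. ARRDC4 had 3, of which 1 at -210 is the palindrome CACGTG (6.34% of windows) and 2 overlap each other at -142 and -140. ARRDC2 had 3 at 1 of its 2 starts, and ARRDC1, MLXIP and MLXIPL had none. No member window held the facing form of the pair, in which CACGNG is followed after 5 bases by its own reverse complement CNCGTG (0.0199% of windows). Nor did any hold its looser form, in which CANGNG is followed after 5 bases by CNCNTG (0.458%) and which contains the stricter one. Matches to CCAAT, present in 32.0% of all windows, occurred in 6 of the 10 member windows, and TATATA, present in 3.73%, occurred in TXNIP alone. The AP-1 motif TGANTCA (6.57%) matched in ARRDC2 and ARRDC4, the cyclic AMP response element TGACGTCA (1.65%) matched in MLXIP, and the ATF4 and CEBP composites TTGCATCA (0.772%) and TGATGNAA (3.14%), which contains the other on its opposite strand, matched in none. All motifs were searched on both strands, and a match describes the letters of the window without showing that a factor binds there.

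**Figure D1:**
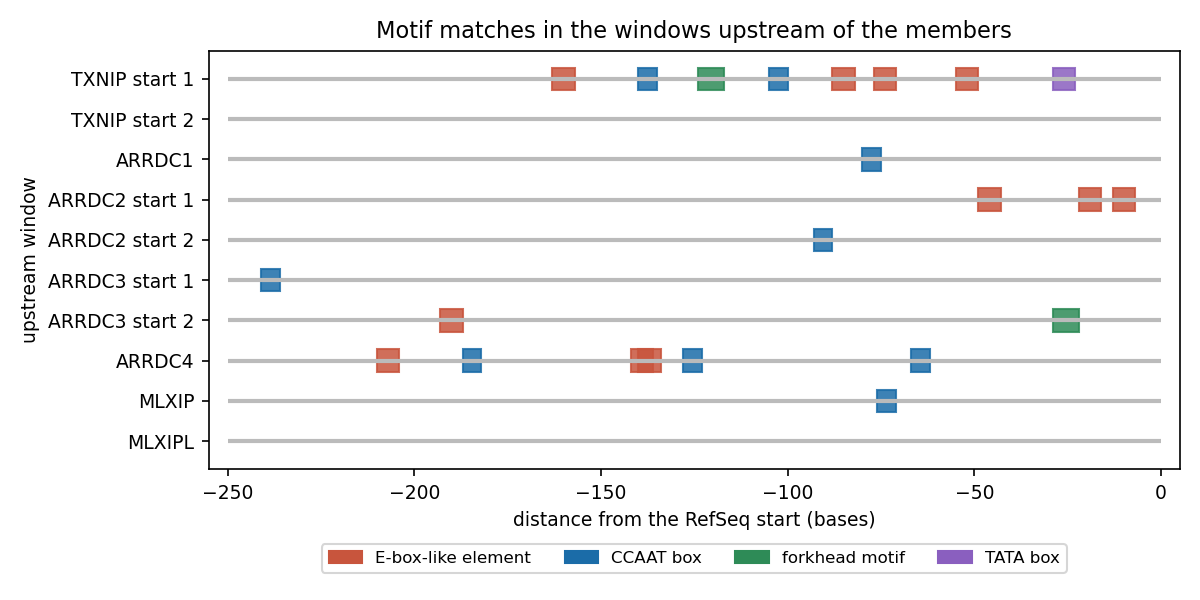
Positions of 4 motifs (the E-box-like element, the CCAAT box, the forkhead motif and the TATA-like motif named in the text, on either strand) in the 250 bases upstream of each RefSeq start of the 7 genes. The x axis is the distance from the start in bases and each horizontal line is 1 of the 10 windows. The first TXNIP start carries 4 E-box-like elements, ARRDC4 and the first ARRDC2 start carry 3 each, and the inner ARRDC3 start carries 1.

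The libraries were those of plasma cell lines by their markers. Of 10 plasma cell markers 9 passed the minimum (CD27 did not), with summed levels from 2900 to 4285 FPKM. JCHAIN alone gave 1312 to 2560 FPKM of these sums. SLAMF7 passed through OCI, at 3.49 to 34.0 FPKM, and stood at 0.180 to 0.990 FPKM in H929. Markers of T and NK cells, myeloid cells, stroma and adipocytes summed to at most 19.3, 12.9, 8.82 and 0.474 FPKM. Depth estimated from the spacing of low values, with OCI wild type set to 100%, ran from 27.5% to 41.8% over the H929 libraries and from 27.5% to 100% over the OCI libraries. Absolute depth is unknown, because the files give no read counts. FPKM summed over all genes ran from 3.44e+06 in H929 wild type to 1.06e+07 in H929 protein. In OCI the sum ran from 3.84e+06 with protein to 7.89e+06 with overexpression, and it was 4.44e+06 in wild type. Levels and fold values are given as deposited, without rescaling to a common sum. H929 protein stood apart in its median over the tested genes, 3.73 on the log2(FPKM + 1) scale against 3.48 to 3.56 in the other 9 libraries. AIMP1 itself stood at 62.5 FPKM in H929 overexpression, 20.3 with protein and 14.5 in wild type, and at 59.7, 14.4 and 14.3 FPKM in the same OCI groups. Among the knockdown libraries it stood at 3.55 FPKM in H929 knockdown 2, and at 5.03 and 2.35 FPKM in the 2 OCI libraries. The library labelled H929 knockdown 1 had 14.2 FPKM, which is 0.982 times the wild-type level, so its AIMP1 mRNA goes against its label. Knockdown differences of the tested members are given with and without it. In the tests over all genes AIMP1 itself was not called. Its fitted log2 difference from wild type was 2.01 ± 0.53 (SE) with overexpression, with an adjusted p of 0.742 by limma. With knockdown it was -1.33 ± 0.46, with an adjusted p of 0.980 by limma. A missing call in these comparisons thus does not show that a gene was unchanged.

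TXNIP was the most variable of the tested members. In H929 it stood at 116 FPKM with overexpression, 43.4 FPKM with protein, 31.4 FPKM in the library labelled knockdown 1, 34.5 FPKM in knockdown 2 and 11.97 FPKM in wild type. In OCI it stood at 156 FPKM with overexpression, 368 FPKM with protein, 19.2 FPKM in knockdown 1, 95.6 FPKM in knockdown 2 and 22.3 FPKM in wild type. Wild type was the lowest H929 library, whereas in OCI knockdown 1 lay below wild type. The highest library exceeded the lowest 30.8-fold. In such bulk libraries, more TXNIP mRNA per cell and more cells that contain it cannot be told apart. Relative to wild type, TXNIP was 9.68-fold with overexpression and 3.62-fold with protein in H929. In OCI it was 7.02-fold with overexpression and 16.5-fold with protein. Overexpression thus gave the higher TXNIP level in H929 and protein the higher level in OCI.

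The spread between knockdown libraries limits how finely the TXNIP levels can be ordered. The 2 H929 knockdown libraries differed by 0.13 on the log2(FPKM + 1) scale, knockdown 2 over knockdown 1, and the 2 OCI libraries by 2.26. Their pooled SD was 1.13. Of the 9 steps between neighbouring libraries in the order of levels, 1 was larger than that SD, the step between OCI protein and OCI overexpression. The other 8 pairs of neighbours did not differ beyond it.

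ARRDC3 slows tumour growth in several settings and helps remove adrenergic receptors and integrins from the cell surface. In H929 its level was 39.9 FPKM with overexpression, 31.0 FPKM with protein, 15.8 FPKM in the library labelled knockdown 1, 14.2 FPKM in knockdown 2 and 19.9 FPKM in wild type. In OCI it was 20.9 FPKM with overexpression, 14.5 FPKM with protein, 7.24 FPKM in knockdown 1, 13.8 FPKM in knockdown 2 and 12.5 FPKM in wild type. In each line the overexpression library was the highest of the 5. Both H929 knockdown libraries were below wild type, and the OCI knockdown libraries lay on either side of it. Relative to wild type, overexpression gave 2.01-fold in H929 and 1.66-fold in OCI, and protein gave 1.56-fold in H929 and 1.16-fold in OCI. The pooled SD of the knockdown pairs was 0.43 (log2), and 2 of 9 steps in the order of levels exceeded it.

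**Figure D2:**
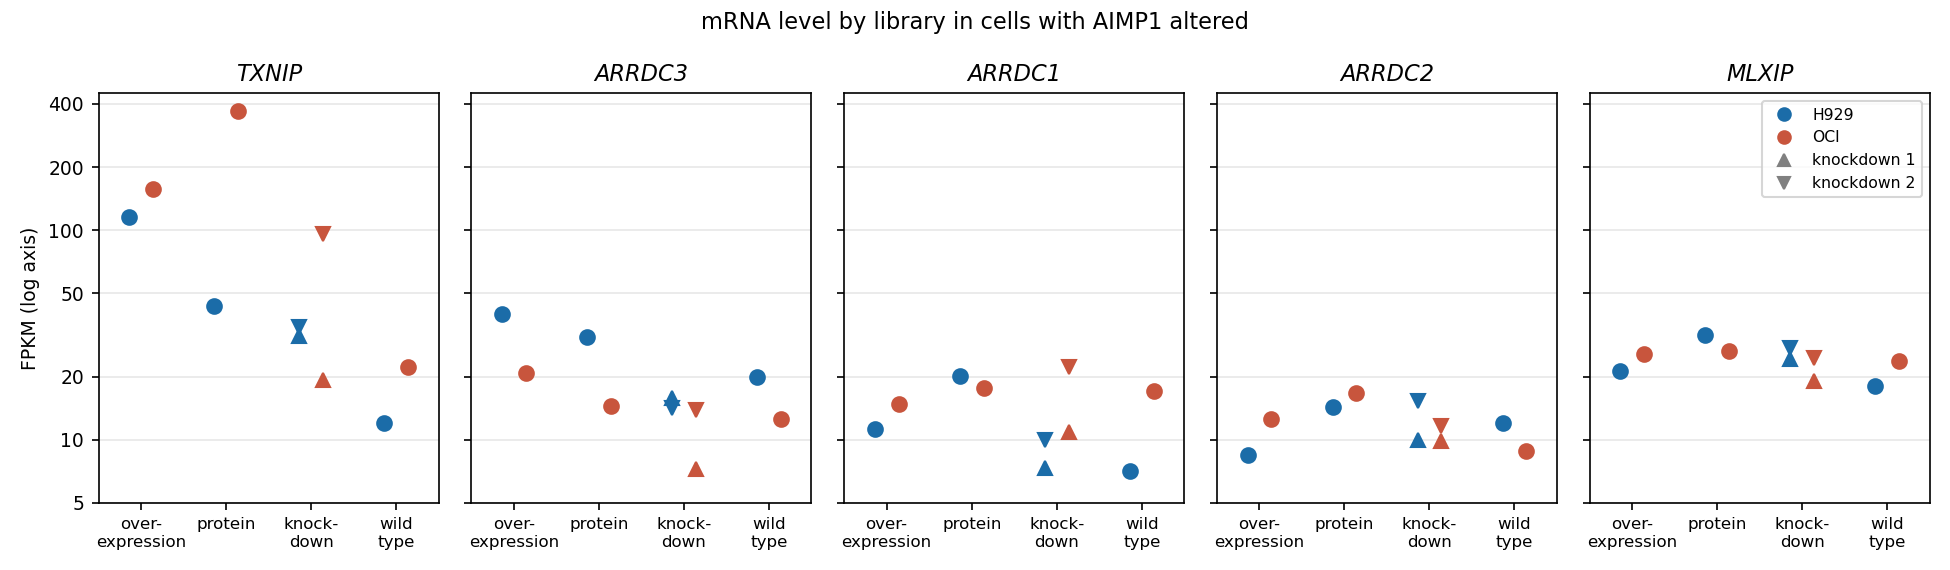
Levels of the 5 tested members in FPKM on a log axis, 1 point per library, with the manipulations side by side, H929 in blue and OCI in red, and triangles for the 2 knockdown libraries of a line. TXNIP spans 11.97 to 368 FPKM, ARRDC3 spans 7.24 to 39.9 FPKM, and the other 3 genes stay between 7.10 and 31.6 FPKM.

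ARRDC1 sits at the plasma membrane, where it drives the budding of small vesicles with the help of the ESCRT protein TSG101. It stood in H929 at 11.3 FPKM with overexpression, 20.1 FPKM with protein, 7.31 FPKM in the library labelled knockdown 1, 9.98 FPKM in knockdown 2 and 7.10 FPKM in wild type. In OCI the ARRDC1 level was 14.9 FPKM with overexpression, 17.6 FPKM with protein, 10.8 FPKM in knockdown 1, 22.2 FPKM in knockdown 2 and 17.1 FPKM in wild type. Protein-treated H929 cells had the highest H929 level, at 2.83-fold of wild type, whereas in OCI protein and wild type differed 1.03-fold. None of the 9 steps in the order of levels exceeded the knockdown SD of 0.53 (log2).

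ARRDC2 varied least among the alpha-arrestins that were tested, with a 1.97-fold range. In H929 its level was 8.46 FPKM with overexpression, 14.4 FPKM with protein, 9.98 FPKM in the library labelled knockdown 1, 15.4 FPKM in knockdown 2 and 12.1 FPKM in wild type. In OCI it was 12.6 FPKM with overexpression, 16.7 FPKM with protein, 9.87 FPKM in knockdown 1, 11.6 FPKM in knockdown 2 and 8.83 FPKM in wild type. Overexpression was below wild type in H929 and above it in OCI. ARRDC4 was listed at 0 in 8 of 10 libraries and reached 0.0408 FPKM in OCI protein and 0.0125 FPKM in OCI knockdown 1. Hence the MondoA target that is often named together with TXNIP was near 0 in the same libraries in which TXNIP stood at 11.97 FPKM or more. ARRDC5, the remaining alpha-arrestin, was listed at 0 in every library.

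Because FPKM is a level per transcript length, the members can be set against each other within a library. TXNIP made up 66.0% of the summed FPKM of TXNIP and ARRDC1 to ARRDC4 in H929 overexpression and 39.8% in H929 protein. The same share was 48.7% in the library labelled H929 knockdown 1, 46.6% in H929 knockdown 2 and 23.5% in H929 wild type. In OCI the share was 76.4% with overexpression, 88.3% with protein, 40.7% in knockdown 1, 66.7% in knockdown 2 and 36.6% in wild type. Wild type had the lowest share in both lines. In H929 wild type ARRDC3 was the most abundant of the 5, at 38.9% of the sum, and it made up 20.6% in OCI wild type.

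MLXIP, the Mondo sensor of most dividing cells, varied little between libraries. It ranged 1.75-fold, with 31.6 FPKM in H929 protein as the highest and 18.05 FPKM in H929 wild type as the lowest level. The other H929 libraries had 21.4 FPKM with overexpression, 24.2 FPKM in the library labelled knockdown 1 and 27.2 FPKM in knockdown 2. The OCI libraries had 25.6 FPKM with overexpression, 26.6 FPKM with protein, 19.1 FPKM in knockdown 1, 24.5 FPKM in knockdown 2 and 23.7 FPKM in wild type. MLXIPL, the sensor of liver and fat, was listed at 0 in 6 of 10 libraries and reached at most 0.264 FPKM, in OCI knockdown 2. MLX, the partner of both sensors, was present at 31.4 to 52.7 FPKM.

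Cells given AIMP1 protein had higher levels than wild-type cells for each of the 5 tested members in both lines before the libraries were centred, and for 3 of the 5 after it. None passed the test over all genes. Fitted differences on the log2(FPKM + 1) scale were 2.88 ± 0.76 for TXNIP (SE), 0.71 ± 0.41 for ARRDC1, 0.54 ± 0.32 for ARRDC2, 0.47 ± 0.27 for MLXIP and 0.41 ± 0.32 for ARRDC3. TXNIP had an adjusted p of 0.135 by limma, with a 95% interval of 1.20 to 4.57, and the other members had adjusted p of 0.359 to 0.496. Of the 5, 0 were called at an adjusted p under 0.05 by limma and 1, TXNIP, had an unadjusted p under 0.05. Across all 12872 genes 0.0155% were called. At an unadjusted p under 0.05, 13.2% were higher and 5.79% were lower, and 36.7% were higher in both lines. The median of all tested genes was itself 0.14 higher, and after centring each library on its median the members' differences ran from 0.26 for ARRDC3 to 2.74 for TXNIP. Centred, TXNIP, ARRDC3 and MLXIP were higher in both lines, against 28.7% of all genes, whereas ARRDC2 stood at -0.0093 in H929 and ARRDC1 at -0.0048 in OCI. This comparison shares its wild-type libraries with the one that picked the genes.

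Much of the fitted TXNIP difference rests on OCI protein. It was 1.77 in H929 and 3.99 in OCI, and it came to 1.61 without OCI protein and 4.16 without H929 protein. The smaller differences moved as well when 1 library was left out. ARRDC1 stood at 0.23 without H929 protein and 1.19 without OCI protein, and ARRDC3 at 0.21 without H929 protein and 0.60 without OCI protein. ARRDC2 stood at 0.79 without H929 wild type and 0.29 without OCI wild type, and MLXIP at 0.22 without H929 wild type and 0.71 without OCI wild type. The line-by-protein term was 2.21 ± 1.47, OCI minus H929, with an adjusted p of 0.771 by limma in a model of group means, so a difference between the lines was not detected. Its 95% interval reached from -1.54 to 5.96. For ARRDC1 the same term was -1.34 ± 0.82 with an adjusted p of 0.755, with 0 of the 5 members called by limma and 0 at an unadjusted p under 0.05. Of all genes 0.101% were called for this term, while 2.65% had a positive and 4.33% a negative value at p under 0.05 before adjustment. OCI protein also carried the highest summed level of myeloid markers, 12.9 FPKM, against 0.0841 FPKM in OCI wild type. None of the 7 myeloid markers passed the minimum of 1 FPKM. S100A8, S100A9, COL1A2 and DCN were above 0 in OCI protein and OCI knockdown 1 alone, and in the second of these TXNIP stood at 19.2 FPKM. Their part in the result was not tested.

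**Figure D3:**
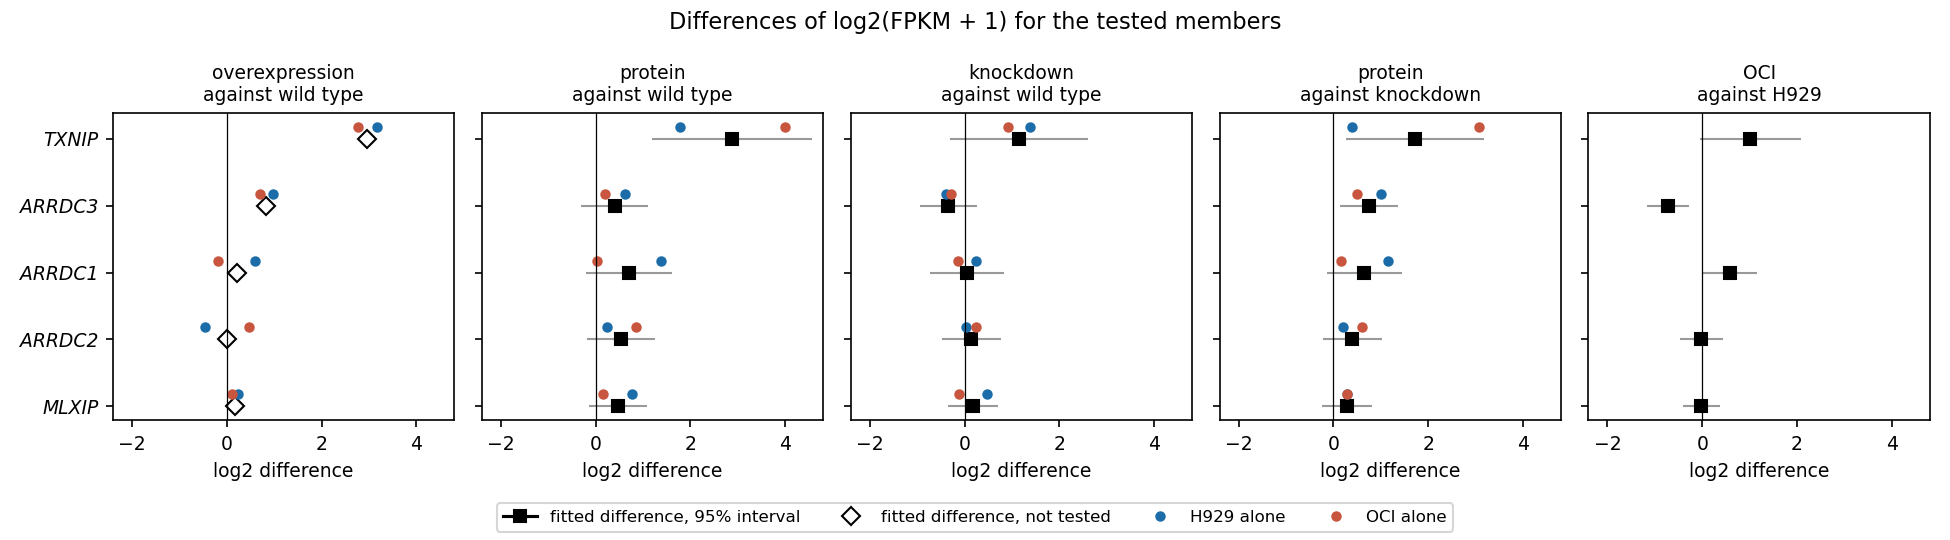
Fitted differences of log2(FPKM + 1) for the 5 tested members in 5 comparisons (black squares with 95% intervals), with the differences within H929 and OCI as coloured points. Open diamonds mark the overexpression comparison, which was not tested. TXNIP lies at 2.96 with overexpression and 2.88 with protein, and ARRDC3 lies at -0.73 in OCI against H929.

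Protein-treated cells were also set against knockdown cells, whose differences contain neither wild-type nor overexpression levels, although their errors and p-values come from the fit to all 10 libraries. All 5 tested members were higher with protein than with knockdown in both lines, against 31.6% of all genes. The median of all genes was 0.11 higher, and with each library centred on its median 4 of the 5 were higher in both lines, against 23.2% of all genes. ARRDC2 then stood at -0.02 in H929. The differences were 1.73 ± 0.65 for TXNIP, 0.74 ± 0.27 for ARRDC3, 0.66 ± 0.35 for ARRDC1, 0.40 ± 0.28 for ARRDC2 and 0.29 ± 0.24 for MLXIP (log2, SE). Centred, they ran from 0.16 for MLXIP to 1.60 for TXNIP. None was called by limma after adjustment, with 0.324 for TXNIP and 0.318 for ARRDC3 as adjusted p, and 0% of all genes were called. TXNIP and ARRDC3 had an unadjusted p under 0.05, as did 10.2% of all genes in the higher and 3.32% in the lower direction. For TXNIP the size came from OCI, with 3.06 there and 0.39 in H929, and it was 0.45 without OCI protein and 3.001 without H929 protein. For ARRDC3 the lines gave 0.49 in OCI and 1.0 in H929. Without the library labelled H929 knockdown 1 the differences were 1.82 for TXNIP, 0.73 for ARRDC3, 0.54 for ARRDC1, 0.32 for ARRDC2 and 0.30 for MLXIP, and without OCI knockdown 1 the TXNIP difference was 1.17.

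In knockdown cells the members did not move one way. TXNIP stood above wild type in 3 of 4 knockdown libraries, at 2.62-fold in the library labelled H929 knockdown 1, 2.88-fold in H929 knockdown 2 and 4.29-fold in OCI knockdown 2, and at 0.861-fold in OCI knockdown 1. Its fitted difference was 1.16 ± 0.65 (log2, SE), with an adjusted p of 0.980 by limma and a 95% interval of -0.30 to 2.62. Without the library labelled H929 knockdown 1 it was 1.06. ARRDC3 stood at -0.34 ± 0.27 with an adjusted p of 0.980, and at -0.33 without that library. ARRDC1, ARRDC2 and MLXIP had fitted differences of 0.05 ± 0.35, 0.14 ± 0.28 and 0.18 ± 0.24, and each of these 3 changed sign when 1 wild-type library was left out. Without the library labelled H929 knockdown 1 they were 0.17 for ARRDC1, 0.22 for ARRDC2 and 0.17 for MLXIP. Of the 5 members, 0 were called by limma and 0 had an unadjusted p under 0.05. Of all genes 0% were called, while 2.1% stood higher and 0.66% stood lower at p under 0.05 before adjustment. Of the members, 2 were higher and 1 was lower in both lines, against 31.8% and 30.4% of all genes. The lines did not differ detectably in the knockdown difference, with 0 of 5 members called by limma in the test of that difference (0% of all genes) and 0 at an unadjusted p under 0.05, where 0.761% of all genes had a positive and 0.497% a negative value. The line-by-knockdown term, OCI minus H929, was -0.46 for TXNIP, -0.37 for ARRDC1, 0.21 for ARRDC2, 0.088 for ARRDC3 and -0.61 for MLXIP. Without the library labelled H929 knockdown 1 it was -0.53 for TXNIP, -0.57 for ARRDC1, -0.073 for ARRDC2, 0.16 for ARRDC3 and -0.69 for MLXIP, with 0 of 5 called by limma.

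With overexpression, the comparison that picked the group, the fitted differences from wild type were 2.96 for TXNIP, 0.83 for ARRDC3, 0.20 for ARRDC1, 0.17 for MLXIP and 0.00 for ARRDC2 on the log2 scale. The TXNIP difference was 3.17 in H929 and 2.76 in OCI, and that of ARRDC3 was 0.97 in H929 and 0.69 in OCI. The MLXIP difference was -0.075 without H929 wild type.

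Between the lines, ARRDC3 was the one member called. It was lower in OCI than in H929, with a difference of -0.73 ± 0.20 (log2, SE; 95% interval -1.17 to -0.28) and an adjusted p of 0.0406 by limma, 1 of 5 members against 12.9% of all genes called. With overexpression, with protein and in wild type the OCI library was below its H929 counterpart, and both OCI knockdown libraries were below both H929 ones. The direction was the same in all 19 alternatives, but the call was lost in 13 of them, with adjusted p between 0.00970 and 0.128. These include leaving out the library labelled H929 knockdown 1 (adjusted p 0.0947). TXNIP was 1.02 ± 0.48 higher in OCI with an adjusted p of 0.187, and without OCI knockdown 1 the difference was 1.46 with an adjusted p of 0.0325. ARRDC1 was 0.59 ± 0.26 higher, with a 95% interval of 0.018 to 1.16. Its p by limma was 0.0445 before and 0.158 after adjustment. ARRDC2 and MLXIP stood at -0.02 with intervals of -0.47 to 0.44 and -0.40 to 0.37.

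The pathway around the members was followed with 8 lists of 87 genes, of which 67 were tested. In the protein, knockdown and overexpression comparisons with wild type and in protein against knockdown, 0 of the 67 passed the test by limma at an adjusted p under 0.05. With overexpression 0% of all genes passed it, while 3.93% stood higher and 2.42% stood lower at p under 0.05 before adjustment. In OCI against H929, 4 were higher and 5 were lower, together 13.4% of those tested. Of all genes 7.6% were higher and 5.28% lower, together 12.9%. The genes named next are those that passed in some comparison, or those with the largest differences of the same sign in both lines. Counts by line in the lists use the values before median centring.

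MYC and the MXD proteins compete with each other for MAX, and the Mondo sensors and MLX belong to the same network. Of its 11 genes, 5 were higher and 3 were lower with protein in both lines, against 36.7% and 23.7% of all genes, with a median difference of 0.52 against 0.14 for all genes. MXD3, a repressor of the network, stood in H929 at 25.3 FPKM with overexpression, 64.8 FPKM with protein and 8.01 FPKM in wild type. In OCI it stood at 15.9 FPKM with overexpression, 25.2 FPKM with protein and 10.5 FPKM in wild type. The fitted MXD3 difference was 2.03 ± 0.59 with protein (adjusted p 0.154 by limma) and 1.05 ± 0.59 with overexpression (adjusted p 0.743). With protein, MXD4 stood at 1.24 ± 0.38 and MXD1 at 0.98 ± 0.37, with adjusted p of 0.164 and 0.207. MXI1 had the largest difference with overexpression, 1.15 ± 0.36 (adjusted p 0.742), at 16.5 FPKM in H929 overexpression against 6.72 FPKM in H929 wild type and at 24.0 FPKM in OCI overexpression against 10.5 FPKM in OCI wild-type cells. MYC was higher in OCI, at 394 to 783 FPKM, than in H929, at 131 to 260 FPKM (1.45 ± 0.26, adjusted p 0.00668 by limma). MYCN was higher in OCI as well (1.20 ± 0.33, adjusted p 0.0407), a call lost in 10 of 19 alternatives.

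In the genes of glucose uptake and phosphorylation the median lay below 0. Of the 7 tested, 2 were higher and 4 were lower with protein in both lines, against 36.7% and 23.7% of all genes. The median was -0.35, against 0.14 for all genes. HK2, the hexokinase of fast-growing cells, stood at 3.04 FPKM with protein against 9.40 FPKM in wild type in H929, and at 1.56 FPKM with protein against 8.26 FPKM in wild type in OCI. Its fitted difference was -1.61 ± 0.39 with an adjusted p of 0.125 by limma. SLC2A1, which encodes the transporter that TXNIP removes from the surface, stood at -0.97 ± 0.57 with protein (adjusted p 0.371) and at -0.88 ± 0.57 with overexpression (adjusted p 0.765). The overexpression value became 0.078 without H929 overexpression. In that library SLC2A1 had 7.99 FPKM against 25.6 FPKM in H929 wild type, whereas OCI had 16.3 FPKM with overexpression against 18.8 FPKM in wild type. SLC2A8, a transporter of internal membranes, stood at 0.62 ± 0.34 with protein (adjusted p 0.337). Between the lines SLC2A6 was higher in OCI (1.06 ± 0.24, adjusted p 0.0198) and HK1, the ubiquitous hexokinase, was lower (-0.87 ± 0.23, adjusted p 0.0341). The SLC2A6 call was lost in 7 of 19 alternatives (adjusted p up to 0.0749) and the HK1 call in 10 (up to 0.114), among them leaving out either wild-type library for each gene.

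Mondo target genes known from liver did not share a direction. Of 9 tested, 5 were higher and 2 were lower with protein in both lines, against 36.7% and 23.7% of all genes. The median was 0.13, close to the 0.14 of all genes. FASN, the fatty acid synthase, stood at -1.27 ± 0.44 with protein and -0.82 ± 0.44 with overexpression (adjusted p 0.187 and 0.742 by limma). SCD, which desaturates fatty acids, stood at -1.28 ± 0.40 with overexpression (adjusted p 0.742), and it was 1.15 ± 0.25 higher in OCI than in H929 (adjusted p 0.0167), a call lost in 7 of 19 alternatives, 6 of them by leaving out any 1 of the overexpression, protein or wild-type libraries (adjusted p up to 0.0715). KLF10 and PPP1R3B stood at 0.79 ± 0.37 and 0.63 ± 0.35 with protein (adjusted p 0.280 and 0.342).

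In the thioredoxin system, whose thioredoxin TXNIP binds, 5 of 12 tested genes were higher and 5 were lower with protein in both lines (median -0.14). The shares over all genes were 36.7% and 23.7%, with a median of 0.14. PRDX5, a peroxiredoxin of mitochondria and peroxisomes, stood at 1.01 ± 0.25 with protein (adjusted p 0.132 by limma). PRDX1, its cytosolic relative, stood at -1.62 ± 0.69 (adjusted p 0.241), and most of this came from OCI, with 41.6 FPKM in the protein library against 335 FPKM in wild type. In H929 PRDX1 had 253 FPKM with protein against 305 FPKM in wild type. SRXN1, which repairs overoxidised peroxiredoxins, stood at -0.88 ± 0.33 with protein (adjusted p 0.206). PRDX3, the mitochondrial peroxiredoxin, stood at -0.68 ± 0.28 with overexpression, where PRDX5 stood at 0.46 ± 0.25 (adjusted p 0.742 for each). Between the lines, NXN, a thioredoxin relative, was lower in OCI at 0.905 to 6.42 FPKM than in H929 at 13.6 to 40.8 FPKM (-2.77 ± 0.44, adjusted p 0.00366), and PRDX6 was lower as well (-0.83 ± 0.14, adjusted p 0.00566).

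**Figure D4:**
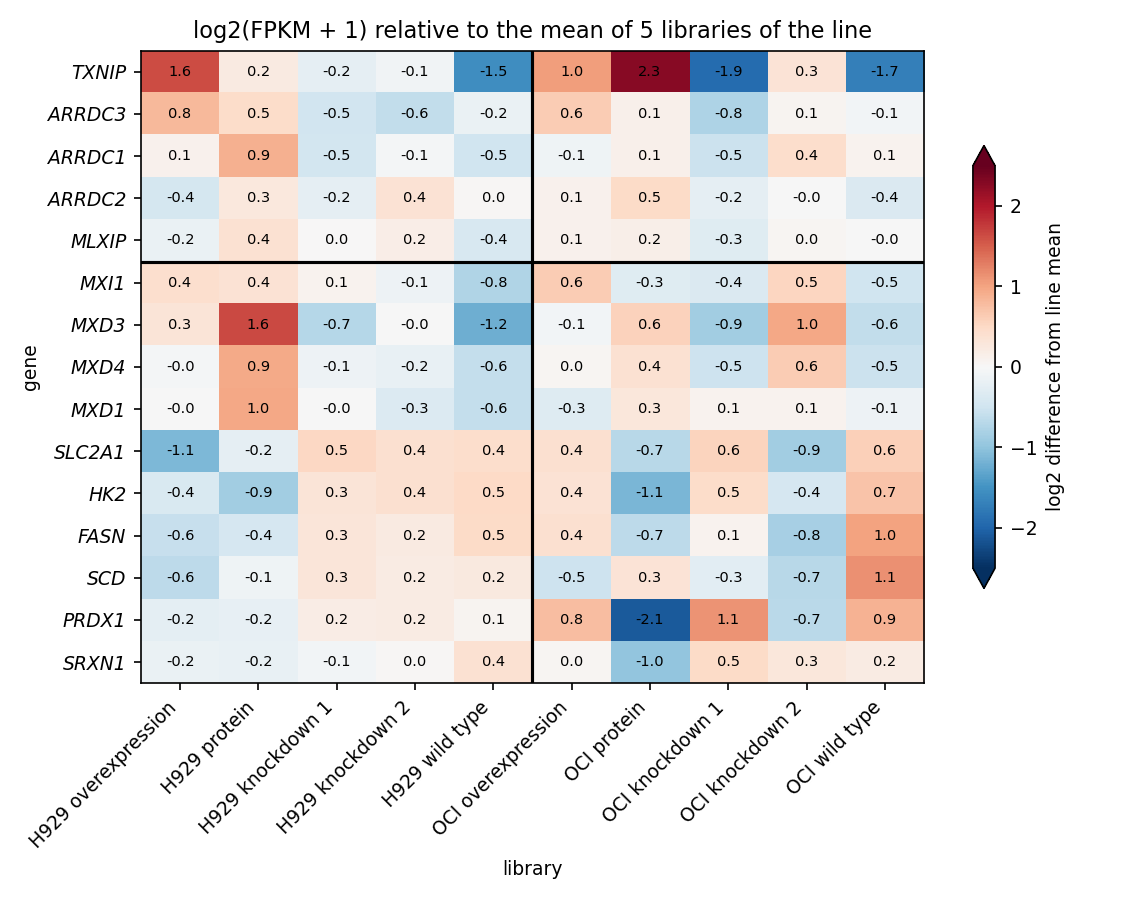
log2(FPKM + 1) of the 5 tested members (above the line) and 10 genes of the pathway lists (below it) relative to the mean of the 5 libraries of each line, with columns for libraries. Red is above and blue is below the line's mean. TXNIP is red in the overexpression libraries and blue in wild type in both lines, and PRDX1 is lowest in OCI protein, at 41.6 FPKM.

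The partners that alpha-arrestins recruit include ubiquitin ligases and the ESCRT machinery. Of 8 tested NEDD4-family ligases 1 was higher and 0 were lower with protein in both lines, against 36.7% and 23.7% of all genes. The higher one was NEDD4L, at 0.56 ± 0.26 (adjusted p 0.267 by limma). With overexpression WWP1 stood at 0.55 ± 0.45 and SMURF1 at -0.51 ± 0.34 (adjusted p 0.789 and 0.765). NEDD4 itself was lower in OCI than in H929 (-1.38 ± 0.28, adjusted p 0.0130), a call lost with no filter (adjusted p 0.0618). Of 12 ESCRT genes linked to ARRDC1 vesicles 6 were higher and 2 were lower with protein in both lines (median 0.39). The shares over all genes were again 36.7% and 23.7%, with a median of 0.14. MVB12A, a subunit of ESCRT-I, stood at 160 FPKM in H929 protein against 67.6 FPKM in H929 wild type and at 275 FPKM in OCI protein against 96.5 FPKM in OCI wild type (1.37 ± 0.37, adjusted p 0.141). VPS28 and VPS37A, further ESCRT-I subunits, stood at 0.82 ± 0.28 and 0.49 ± 0.28 (adjusted p 0.180 and 0.367). With overexpression 2 of the 12 were higher and 7 were lower in both lines, against 30.9% and 30.6% of all genes, MVB12B at -0.84 ± 0.44 among them, and VPS37D stood at 0.83 ± 0.77.

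Of 4 tested AMPK subunits, whose kinase phosphorylates TXNIP when energy is short, PRKAB1 stood at 0.80 ± 0.33 and PRKAB2 at 0.63 ± 0.43 with protein (adjusted p 0.233 and 0.442 by limma). The catalytic subunit PRKAA1 was lower in OCI than in H929 (-0.83 ± 0.19, adjusted p 0.0227), a call lost in 8 of 19 alternatives (up to 0.0759). With overexpression it stood at -0.58 ± 0.31 (adjusted p 0.742). Among other arrestin-fold genes 4 of 8 were tested, and VPS26B and VPS26C stood within -0.37 and 0.36 of wild type with overexpression and protein. Of the beta-arrestins, ARRB2 stood at 29.9 to 43.9 FPKM, while ARRB1 reached at most 0.856 FPKM.

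Profiles over the 10 libraries were compared after each gene's mean in a line was subtracted, as the root mean square of the log2 difference. Nearest to TXNIP, whose own spread about its line means was 1.35, were ZNF687-AS1 at 0.59, SPACA3 at 0.64, TMEM265 at 0.66, ZRANB2-DT at 0.68 and LINC02696 at 0.68. ZNF687-AS1 had 3.98 FPKM in H929 overexpression against 0.708 FPKM in H929 wild type. It also had 24.8 FPKM in OCI protein against 1.98 FPKM in OCI wild type. These are genes of low level, and 3 of the 5 are noncoding. Nearest to ARRDC3, whose spread was 0.50, were SAPCD1 and ST3GAL6-AS1 at 0.22 each, FADS3 and MST1 at 0.23 each, and MAP2K4 at 0.24. FADS3 had 16.4 FPKM in H929 overexpression against 7.81 FPKM in H929 wild type. In OCI it had 19.4 FPKM with overexpression against 11.1 FPKM in wild type. Between TXNIP and ARRDC3 themselves the distance was 1.09, more than either gene's nearest profiles. Among the members the closest pair was ARRDC2 and MLXIP at 0.24, with spreads of their own of 0.29 and 0.22. The distance is not scaled to a gene's spread. Genes that vary little therefore lie close together and genes of unequal spread lie apart, whatever the shape of their profiles.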

How the data were processed

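Poly(A) RNA was sequenced as paired ends, per the labels' protocols. The extraction protocol speaks of adipose material, although the samples are myeloma cell lines. The authors deposited 1 table of FPKM values. Per the submitters' processing notes the tools were Bowtie 0.12.2, HISAT2 2.0 and StringTie 1.3.0, without roles, and the build a mouse one, although the gene IDs are human. Neither the handling of strand nor that of shared reads is given in these sources. ARRDC1, ARRDC2, ARRDC3 and MLXIPL overlap other genes in GENCODE, some on the opposite strand. Reads from the shared stretches cannot be told apart from those of the partner, and how much they add is unknown. A listed 0 can stand for a failed estimate.

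FPKM values were analysed here as log2(FPKM + 1), which understates changes of low genes, for the 12872 genes whose mean reached 1 FPKM. limma 3.58.1 in R 4.3.3 was fitted to all 10 libraries with terms for line and manipulation and a variance trend (5 residual degrees of freedom). OCI against H929 came from this fit. The line-by-protein and line-by-knockdown terms used 8 group means (2 residual degrees of freedom). Tests were two-sided, with Benjamini-Hochberg adjustment over all tested genes and a threshold of 0.05. The fit with terms for line and manipulation was run on simulated data with shifts equal in both lines and independent noise. That run checked whether shift sizes were recovered, not how the fit behaves where the lines disagree. The members and lists were chosen with earlier results of these data known. Named genes are the members, AIMP1, ARRDC5, each list gene called in a comparison, up to 3 list genes with the largest protein and 2 with the largest overexpression difference of 1 sign in both lines, and the 5 nearest profiles of TXNIP and ARRDC3. Other names, and the counts by line after median centring, were chosen after values were seen. Upstream windows came from RefSeq (GRCh38.p14), where 7 of 7 members matched. Alternatives were other pseudocounts, filters, normalizations and models, a block for the replicate number, and fits without each library in turn.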

Additional observations from a re-analysis of the deposited data

Results flagged for a closer look

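For 2 members the lines lay on opposite sides of wild type with overexpression. ARRDC1 stood at 0.60 in H929 and -0.19 in OCI (log2), a difference of -0.79 for OCI minus H929. ARRDC2 stood at -0.47 in H929 and 0.47 in OCI, a difference of 0.94. Each value rests on 1 overexpression and 1 wild-type library per line, and the difference between the lines was not tested.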

How the results depend on the processing

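Over the alternatives, 1531 values of single genes were recomputed, and 1442 counted as kept. A kept value had the same direction and the same side of the threshold. The members' overexpression values, which were not tested, instead counted as kept when they moved by less than the knockdown SD. Some of these changed sign, such as ARRDC1, from 0.20 to -0.15 without H929 wild type. Between manipulations, another filter or leaving out a library of neither group left the fitted difference unchanged and could move only its adjusted p. Under such alternatives the untested overexpression values were kept by construction, so the kept count overstates how far values were put to a test. In the protein, knockdown and protein-against-knockdown comparisons 0 of 5 members were called under every alternative. TXNIP stayed positive in those comparisons in all 20 alternatives, many of which could not change its value. It ran from 1.61 to 4.16 with protein and from 0.45 to 3.001 for protein against knockdown. Absolute depth is unknown, and groups of 1 library borrow their spread from the others.

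The ARRDC3 call in OCI against H929, the single call among the members, became 0 when the minimum was 0.1 FPKM, with no filter, without the variance trend and with group means, and it came to 0 to 1 when each library was left out. ARRDC2 and MLXIP had differences near 0 between the lines and turned to 0.0070 and 0.0055 with median centring and to 0.029 and 0.037 with group means, and ARRDC2 to 0.0093 with quantile normalization. Leaving out each library gave -0.15 to 0.10 for ARRDC2 and -0.12 to 0.068 for MLXIP in that comparison.

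In knockdown against wild type, leaving out each library gave -0.30 to 0.41 for ARRDC1, -0.10 to 0.39 for ARRDC2 and -0.064 to 0.42 for MLXIP. The line-by-knockdown difference ran from -1.59 to 0.67 for TXNIP, -0.85 to 0.12 for ARRDC1, -0.073 to 0.50 for ARRDC2 and -0.33 to 0.51 for ARRDC3 when each knockdown library was left out. With overexpression the range was -1.84 to 0.078 for SLC2A1 and -0.019 to 0.30 for VPS26C.

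Counts over all genes moved more, and the cause was not tested. For overexpression, 0 genes became 4 when the minimum was 0.1 FPKM, 17 with no filter and 1 with quantile normalization, and 0 to 5 without 1 library. For knockdown, 0 became 2 and 11 with those filters and 3 with group means, and 0 to 6 without 1 library. For protein, 2 became 4 and 14 with those filters, 1 with median centring, 0 with quantile normalization, 0 with no line term and 12 with group means, and 0 to 442 without 1 library, the most without OCI knockdown 2. Without that library MXD3, MXD4, PRDX5 and HK2 passed for protein, with adjusted p of 0.0425, 0.0448, 0.0425 and 0.0372. For protein against knockdown, 0 became 2 with a pseudocount of 0.1 and 7 with group means, and 0 to 123 without 1 library. For OCI against H929, 1658 became 1063 with no filter and 844 with group means, and 787 to 1657 without 1 library. For the line-by-knockdown difference, 0 became 633 with no filter, 4 with median centring and 4 without the trend. For the line-by-protein difference, 13 became 7 and 4 with pseudocounts of 0.1 and 0.5, 0 and 1425 with the 2 filters, and 0 at the lowest without 1 library.

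The knockdown numbers did not pair the libraries: the differences of knockdown 2 from knockdown 1 correlated at 0.0757 over genes between the lines. With a replicate block for the knockdown number, 1 gene was called for overexpression, 7 for protein and 1 for protein against knockdown. The block changed no member's call, with an adjusted p of 0.0934 for TXNIP with protein and 0.0418 for ARRDC3 between the lines. For the line-by-protein and line-by-knockdown differences only knockdown libraries were left out in turn, whereas OCI against H929 was refitted without each library.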

Other observations

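The 2 OCI knockdown libraries stood further apart than the 2 H929 ones in several genes around TXNIP, which were picked after their values were seen. OCI knockdown 2, with 2.35 FPKM of AIMP1, had 95.6 FPKM of TXNIP, 33.6 FPKM of MXD3, 114 FPKM of PRDX1, 6.11 FPKM of SLC2A1 and 35.5 FPKM of FASN. OCI knockdown 1, with 5.03 FPKM of AIMP1, had 19.2 FPKM of TXNIP, 8.60 FPKM of MXD3, 400 FPKM of PRDX1, 18.2 FPKM of SLC2A1 and 68.3 FPKM of FASN. For TXNIP, SLC2A1, PRDX1 and FASN, OCI protein lay on the side of knockdown 2, at 368, 7.13, 41.6 and 40.4 FPKM.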
